A study of Callithrix jacchus and Rattus norvegicus and Loxodonta africana with 31 samples.

Results

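The genes described here serve the replacement of histones by protamines in the sperm nucleus, and 9 names were looked up by exact symbol, ignoring case (the tables print them in capitals), in the expression tables of 3 mammals. They are the protamine genes Prm1, Prm2 and Prm3, the transition protein genes Tnp1 and Tnp2, the testis linker histone genes Hist1h1t and H1fnt, the bromodomain gene Brdt and the chromatin remodeller gene Chd5. Of these names, 8 occurred in at least 1 table: 8 among 20486 rat genes, 2 among 19681 genes of the common marmoset (a New World monkey) and 4 among 13892 wallaby genes. Brdt and Chd5 were listed in all 3 tables, Prm1 and Tnp1 in rat and wallaby, and Prm2, Prm3, Tnp2 and H1fnt in rat. Hist1h1t and the other combinations of member and species were not analysed here.

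The study, whose stated design concerns the sequence and expression of Y-linked genes in mammals, sequenced polyadenylated RNA of 31 samples. The values used are FPKM, which scale fragments to transcript length and to the mapped fragments of a library, in 22 columns: 10 in marmoset, 10 in rat and 2 in wallaby. In marmoset and rat they cover brain, heart, kidney and liver of 1 male and 1 female individual, with 1 testis and 1 ovary column; in wallaby they cover the liver and testis of 1 male. The labels give no strain, age or treatment for these animals. The marmoset testis column is the authors' single value for 3 testis samples of 2 individuals, joined in a way that the sources used here do not state. Each brain column belongs to a sex with a frontal cortex and a cerebellum sample, and its name does not say which of these it holds. With 1 testis column per species there is no replicate error for testis, so testis differences are given as sizes with no p-value. Since nothing says that the other columns rest on more than 1 animal of each sex, their spread is that between the male and the female.

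In the haploid spermatid, the round cell left after meiosis, most histones are taken off the DNA as the nucleus condenses. Transition proteins take their place for a short time and protamines, small arginine-rich proteins, then pack the DNA into the sperm head. The mRNAs are made in round spermatids and stored until the elongating spermatid translates them, so their presence in testis RNA is tied to these late germ cells.

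The labelled somatic tissues held their own marker genes: for 10 of 10 combinations of marker list and species (heart muscle, kidney, liver, neurons, and oligodendrocytes with astrocytes, in marmoset and rat) the summed level was higher in each column of the named tissue than in every other column. Of the genes in each table, 73.2% to 97.4% were above 0 in a column. Sequencing depth is unknown, since the tables hold no counts. An exact 0 can be a failed estimate and is described as listed at 0. In 3 rat columns (male heart, male liver and female kidney) Prm1, Tnp1 and Tnp2 were all listed at 0, so rat results were also computed without these columns.

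Prm1, the protamine found across mammals, was among the genes with the highest FPKM in rat testis. Its level was 5435 FPKM in testis, 5.06 in male kidney, 4.04 in female liver, 1.56 in female heart, 1.35 in male brain, 1.15 in female brain, 0.997 in ovary and 0 in male heart, male liver and female kidney. The testis column thus stood far above a group of low columns that did not reach it in any tissue. Prm1 ranked 10 of 20486 genes in testis by FPKM and made up 1.04% of the summed FPKM of that column. On the log2(FPKM + 1) scale, which understates the difference of low genes, testis was 9.81 above male kidney, the highest other column.

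Prm2, the second protamine, which is made as a precursor and trimmed on the DNA, was listed in rat at 381 FPKM in testis, 0.258 in ovary, 0.205 in male brain and 0 in the other 7 columns. Prm3, whose gene lies in the protamine cluster but whose protein is acidic, was at 169 FPKM in testis, 0.0222 in female heart, 0.00381 in male kidney and 0 in the other 7 columns. Both were therefore confined to testis apart from values below 1 FPKM. They ranked 133 and 412 in testis, and testis exceeded the highest other column by 8.25 for Prm2 and 7.37 for Prm3 (log2). The 3 protamine genes and Tnp2 all lie on rat chromosome 10 as the table gives it, and Prm1 was listed there at 14.3 times the FPKM of Prm2 and 32.2 times that of Prm3. FPKM is scaled to transcript length, but these transcripts are short, and no source used here states how fragment size was corrected for in short transcripts.

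The transition proteins reached levels near that of Prm1. Tnp1, on rat chromosome 9, was at 3396 FPKM in testis, 4.41 in female liver, 0.870 in female heart, 0.714 in female brain, 0.667 in male brain, 0.539 in male kidney, 0.138 in ovary and 0 in male heart, male liver and female kidney. Tnp2 was at 4016 FPKM in testis, 3.42 in female liver, 1.23 in female brain, 0.822 in male brain, 0.734 in ovary, 0.547 in female heart, 0.305 in male kidney and 0 in the same 3 columns. Both were high in testis and at most 4.41 FPKM elsewhere, with female liver the highest of the other columns. They ranked 17 (Tnp1) and 13 (Tnp2) in testis. Prm1 was 1.60 times Tnp1 and 1.35 times Tnp2, and Tnp2 was 1.18 times Tnp1, ratios within a single column for which no error can be given. Testis exceeded female liver by 9.29 for Tnp1 and 9.83 for Tnp2 (log2).

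H1fnt, on rat chromosome 7, encodes a linker histone of spermatids. It was at 149 FPKM in testis, 0.252 in female liver, 0.211 in male kidney, 0.146 in male brain, 0.0987 in female heart, 0.0877 in ovary, 0.0540 in female brain and 0 in male heart, male liver and female kidney. Its testis level was close to that of Prm3 (0.883 times), and every other column was below 1 FPKM. Brdt, on chromosome 14, encodes the BET family protein of male germ cells that binds acetylated histones. It was at 108 FPKM in rat testis, 0.419 in ovary, 0.0928 in female liver, 0.0875 in female heart, 0.0249 in male kidney, 0.0215 in male brain and 0 in the other 4 columns. The differences to the highest other column were 6.90 for H1fnt and 6.26 for Brdt (log2), with ranks of 497 and 752 in testis.

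Chd5, on rat chromosome 5, encodes a nucleosome remodeller known from neurons and spermatids, and it was the member with 2 sites of expression. It was at 19.1 FPKM in testis, 5.88 in female brain, 3.48 in male brain, 0.191 in female kidney, 0.0882 in female liver, 0.0196 in male kidney, 0.00259 in female heart, 0.00191 in ovary and 0 in male heart and male liver. Testis was highest, the brain columns followed, and the remaining columns were below 1 FPKM. The difference between testis and female brain was 1.55 (log2), below the difference of 2 used here for counting a gene as higher in testis. Without the brain columns it was 4.08.

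**Figure D1:**
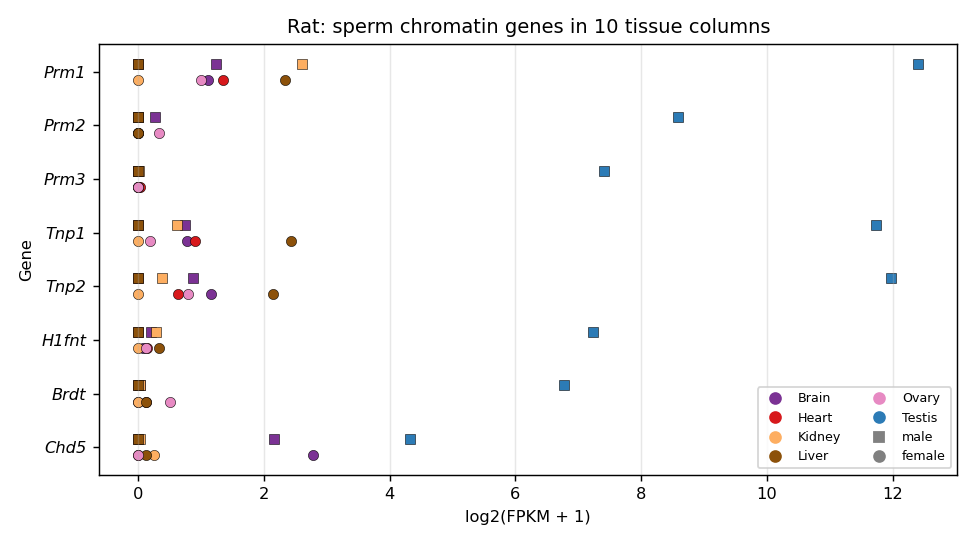
Level of each gene, as log2(FPKM + 1), in the 10 rat columns; each point is 1 column, coloured by tissue, squares for the male and circles for the female. For Prm1 the testis square sits at 12.41 and the highest other point at 2.60; for Chd5 the brain points lie between the testis square at 4.33 and the points near 0.

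By that criterion (testis at least 2 log2 units above every other column, among genes that reached 1 FPKM in any column), 7 of the 8 rat members were higher in testis and none was lower. Among all 17347 rat genes tested, 1975 or 11.4% were higher and 113 or 0.651% were lower. The median difference between testis and the mean of the other columns was 7.96 for the members and -0.27 for all genes tested. All 8 rat members were highest in testis, and Prm2, Prm3, H1fnt and Brdt passed the filter on low values through testis alone. The count is therefore a description. It was also 7 of 8 without the male heart, male liver and female kidney columns. Against ovary alone, 8 of 8 members were at least 2 higher in testis, beside 20.9% of the 14343 genes tested (9.43% were lower). Together the 8 members made up 2.61% of the summed FPKM of rat testis, and 7 of them were above 100 FPKM, a level reached by 3.92% of all genes there.

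Outside testis, Prm1, Tnp1 and Tnp2 kept small values in 6 of the 9 rat columns. Relative to testis they lay between 0.00405% (Tnp1 in ovary) and 0.130% (Tnp1 in female liver). Other genes that were abundant in testis followed the same columns. Of the 20 rat genes with at least 1000 FPKM in testis and a difference of at least 8 (log2) to every other column, a set chosen on these values and including these 3 members, 19 or 20 were above 0 in both brains, female heart, male kidney, female liver and ovary. In male heart, male liver and female kidney 5, 4 and 6 of them were above 0. Their median level relative to testis was 0.0529% in female liver, where Prm1 stood at 0.0743% and Tnp2 at 0.0851%. The source of these values was not tested.

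**Figure D2:**
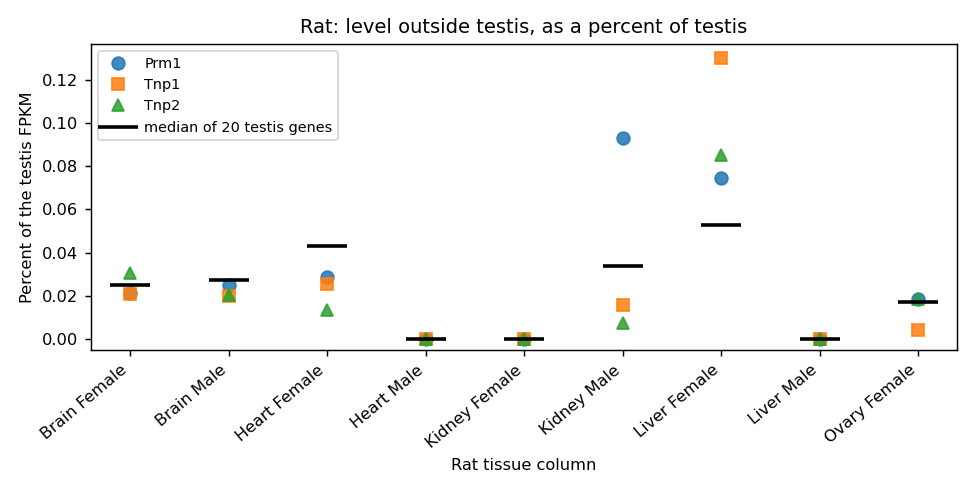
Level of Prm1, Tnp1 and Tnp2 in the 9 rat columns other than testis, as a percent of their testis FPKM; the black dashes give the median over the 20 genes abundant in rat testis. All 3 members are at 0 in male heart, female kidney and male liver, and the highest point is Tnp1 in female liver at 0.130%.

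In the wallaby, a marsupial, Prm1 had the highest FPKM of all genes in testis. It was listed at 72536 FPKM in testis and 78.2 in liver. Tnp1 was listed at 9476 FPKM in testis and 13.9 in liver. Both were therefore above 1 FPKM in liver as well, at 0.108% (Prm1) and 0.147% (Tnp1) of the testis level, beside a median of 0.188% over the 9 wallaby genes with at least 1000 FPKM in testis and a difference of at least 8. Prm1 ranked 1 and Tnp1 ranked 4 of 13892 genes in testis, with 16.0% and 2.09% of the summed FPKM. Prm1 was 7.65 times Tnp1, against 1.60 times in rat, in tables that were normalized separately. How fragment size was corrected for in short transcripts is not stated for wallaby either. The differences between testis and liver were 9.84 for Prm1 and 9.31 for Tnp1 (log2).

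The chromatin readers were low in wallaby testis. Brdt was listed at 0.709 FPKM in testis and 0 in liver, and Chd5 at 2.45 FPKM in testis and 0.0712 in liver. Both were higher in testis than in liver, but below the median of all wallaby genes in testis, 3.13 FPKM. They ranked 9798 and 7536, and Chd5 was 3.46 times Brdt where in rat Brdt was 5.65 times Chd5. Brdt did not reach 1 FPKM, and the Chd5 difference of 1.69 (log2) fell short of 2; with a pseudocount of 0.1 in place of 1 it was 3.90. Of the 4 wallaby members, 3 passed the filter and 2 of these, Prm1 and Tnp1, were at least 2 higher in testis than in liver, beside 13.6% of the 11467 genes tested (29.2% were lower).

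In marmoset testis both members analysed were low. Brdt was listed at 1.35 FPKM in testis, 0.557 in ovary and 0 in the other 8 columns. Chd5 was at 10.6 FPKM in female brain, 5.53 in male brain, 0.624 in testis, 0.0533 in ovary, 0.0424 in male liver, 0.0125 in female kidney, 0.0117 in male heart, 0.0108 in female heart, 0.00403 in male kidney and 0 in female liver. Brdt was thus above 0 in the gonad columns alone, with the ovary at 41.1% of testis, and Chd5 was foremost a brain transcript. In testis Brdt ranked 11900 and Chd5 13627 of 19681 genes, both below the median gene at 2.83 FPKM. The difference between testis and the highest other column was 0.60 for Brdt and -2.84 for Chd5 (log2). Neither of the 2 members was higher in testis by the criterion of 2, which 3.14% of the 16546 marmoset genes met (0.320% were lower). Against ovary, 0 of the 1 member that passed the filter was higher, beside 11.6% of 13810 genes (5.52% were lower). Brdt and Chd5 together made up 0.000556% of the summed testis FPKM.

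Prm1, Prm2, Prm3 and Tnp2 were not analysed here in marmoset. A marmoset gene ID that an Ensembl name table pairs with Tnp1, outside the lookup by symbol, was at 0.169 FPKM in testis and 0 in the other 9 columns. In the RefSeq annotation of the marmoset assembly calJac240_pri, Prm2, Prm3 and Tnp2 stand side by side among protein-coding genes, followed by SOCS1.

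**Figure D3:**
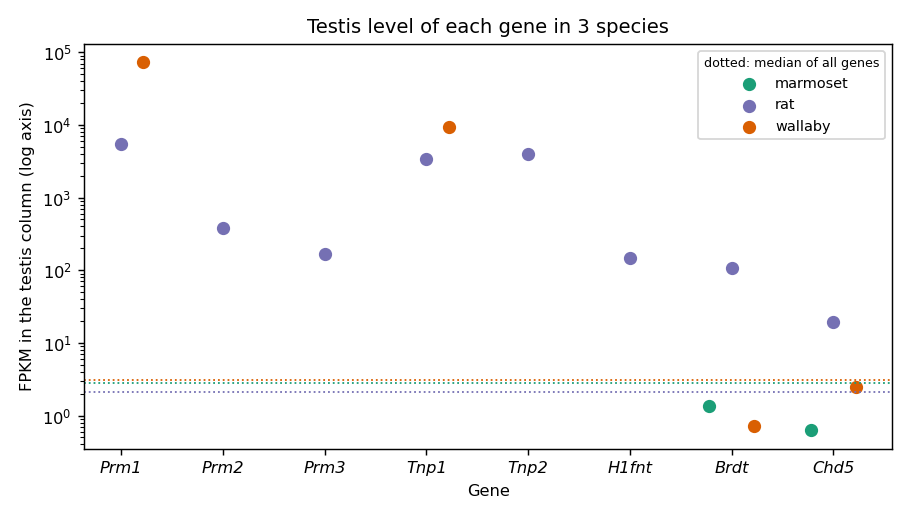
FPKM of each member in the testis column of marmoset, rat and wallaby, on a log axis; dotted lines mark the median of all genes in each testis column. Prm1 runs from 5435 in rat to 72536 in wallaby, while Brdt is at 108 in rat, 1.35 in marmoset and 0.709 in wallaby; the 3 tables were normalized separately.

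Markers of testis cell types, taken from lists used for all 3 species, also differed between the testis columns. Brdt was at 108 FPKM in rat testis, 1.35 in marmoset and 0.709 in wallaby. The marmoset and wallaby values are low and come from tables normalized separately, so their order is not interpreted. In rat testis 7 of 7 round spermatid markers lay between 32.9 and 213 FPKM and 9 of 9 elongating spermatid markers between 168 and 9442, with OAZ3, an antizyme of late spermatids, highest. In wallaby testis the 3 round spermatid markers found lay between 24.7 and 41.0 FPKM and the 6 elongating spermatid markers between 53.3 and 1046. In marmoset testis 5 of 5 round spermatid markers were below 1 FPKM, from 0.0607 for SPATA9 to 0.586 for CATSPER3, a sperm calcium channel gene. Of the 5 elongating spermatid markers there, 4 were below 1 FPKM and ODF2, a gene of the sperm tail fibres that centrosomes also use, was at 28.5. None of these markers was listed at 0 in a testis column.

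The summed round spermatid markers came to 1.65 FPKM in marmoset testis and to between 0.396 and 3.95 in the other marmoset columns. In rat all 7 came to 694 FPKM in testis, the 5 shared with marmoset to 383, and all 7 to between 0.124 and 1.07 elsewhere. Earlier germ cell genes were present in marmoset testis, with SYCP1, a protein of paired meiotic chromosomes, at 12.6 FPKM and PIWIL1, a piRNA-binding protein of germ cells, at 6.99, while SPO11 and DMC1, which make and repair meiotic breaks, were at 0.0477 and 0.0846. Somatic testis markers stood higher there: the Leydig cell list summed to 472 FPKM with CYP17A1 at 277, and the Sertoli cell list to 158 with GATA4 at 79.6. Over the same genes, 5 for Leydig and 6 for Sertoli cells, rat testis summed to 76.9 and 21.4 FPKM. With INSL3 (212 FPKM), INHA (26.1) and CLDN11 (46.4), which the marmoset sums do not include, the rat lists came to 289 and 94.0 FPKM. The part of cell makeup in the member levels was not tested, and in bulk RNA fewer cells of a type and less RNA per cell cannot be told apart.

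**Figure D4:**
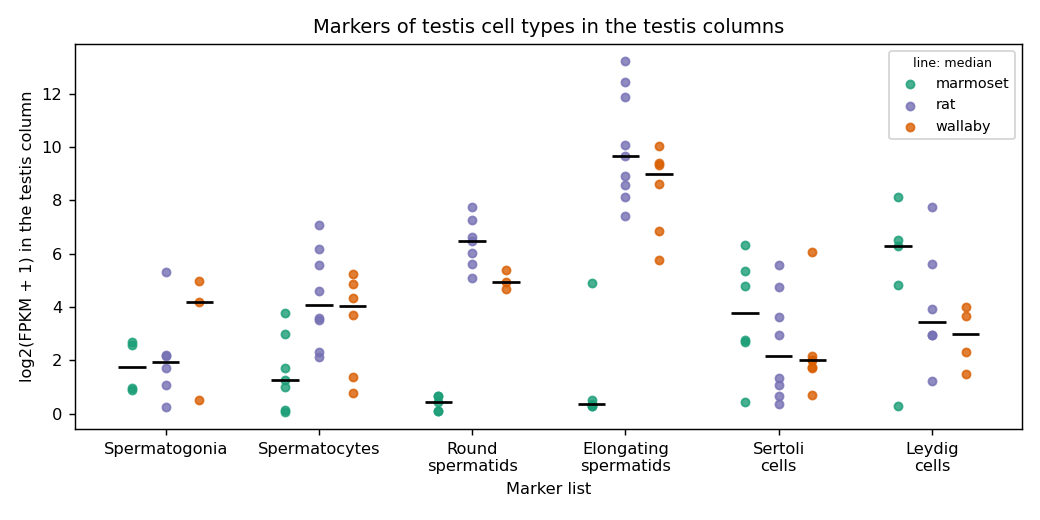
Level, as log2(FPKM + 1), of each marker gene found in the testis column of marmoset, rat and wallaby, by cell type list; black lines are list medians. The rat and wallaby spermatid markers lie between 24.7 and 9442 FPKM, and the 5 marmoset round spermatid markers below 1 FPKM.

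Chd5 could be tested in brain, which had a male and a female column. In marmoset it was at 8.08 ± 3.60 FPKM in brain (SD, n = 2), while the 6 heart, kidney and liver columns lay between 0 and 0.0424. In rat it was at 4.68 ± 1.70 FPKM in brain (SD, n = 2), while the 6 columns lay between 0 and 0.191. The female brain was 1.92 times the male in marmoset and 1.69 times in rat. On the log2 scale brain exceeded the mean of the 3 tissues by 3.10 ± 0.21 (SE; limma, Benjamini-Hochberg adjusted p = 4.47e-05) in marmoset and by 2.41 ± 0.16 (SE; limma, adjusted p = 3.27e-05) in rat. Such a call, an adjusted p below 0.05 with a difference of at least 1, was made as higher in brain for 17.0% of 15100 marmoset genes and 17.6% of 14560 rat genes. A call as lower was made for 28.8% and 27.1%, so that 45.8% and 44.7% were called in either direction. Chd5 passed the filter of 1 FPKM in 2 columns through its brain columns alone, and without either of them it was not tested.

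Set against these brain values, testis Chd5 was 4.08 times the brain mean in rat, and the brain mean was 12.9 times testis in marmoset. Other rat members tested in brain were Prm1, at 0.12 ± 0.85 (SE; limma, adjusted p = 0.908), and Tnp2, at 0.49 ± 0.43 (SE; limma, adjusted p = 0.357), neither of which passed. Prm2, Prm3, Tnp1, H1fnt, rat Brdt and marmoset Brdt did not reach the filter.

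**Figure D5:**
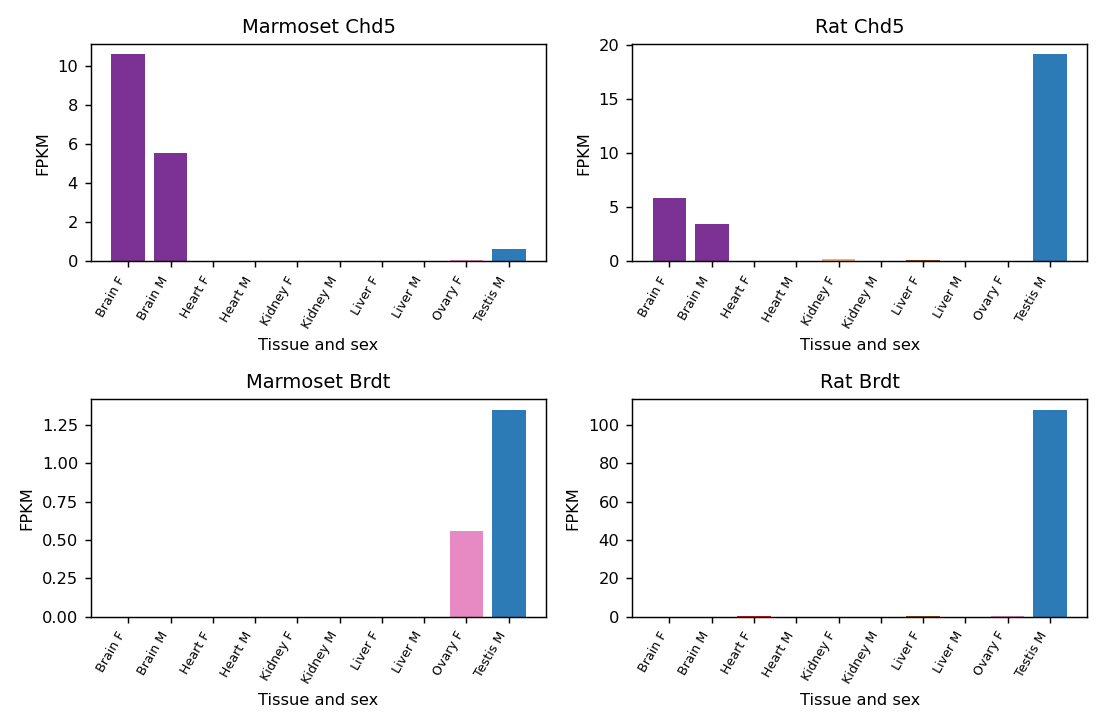
FPKM of Chd5 (top) and Brdt (bottom) in the 10 marmoset and 10 rat columns, with M for male and F for female; each bar is 1 column and each panel has its own axis from 0. Chd5 is highest in brain in marmoset (10.6 and 5.53) and in testis in rat (19.1), and Brdt appears in testis and ovary in marmoset.

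Of the 8 other CHD remodeller genes none was at least 2 above every other column in testis in marmoset, rat or wallaby. In wallaby 7 of the 8 passed the filter. With 3.14%, 11.4% and 13.6% of all genes tested higher in these species, counts of 0 were near the shares of all genes. In brain CHD3, a subunit of the NuRD complex, was higher in marmoset (1.81; limma, adjusted p = 0.000206) and in rat (1.95; limma, adjusted p = 0.000192). CHD9 and CHD7 were higher in marmoset, by 1.53 and 1.10, and no other of the 8 passed in either species. The counts were 3 of 8 in marmoset and 1 of 8 in rat, beside 17.0% and 17.6% of all genes tested. CHD4, the other NuRD remodeller, was the most abundant of the 8 in marmoset testis, at 88.2 FPKM. That level was 1.99 above the highest other column (21.4 FPKM), just under the criterion. Against ovary alone (18.7 FPKM) 1 of the 8 genes, CHD4, met it, beside 11.6% of all genes tested. Of the 3 BET genes, BRD3 was higher in rat testis (36.6 FPKM, 2.72 above the highest other column) and the other 2 were not. This was 1 of 3, beside 11.4% of all rat genes tested. In marmoset and wallaby 0 of 3 reached the criterion, beside 3.14% and 13.6%. None of the 3 passed in brain.

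Testis histone variants and their chaperones were higher in rat testis in 4 of 7 genes tested, in wallaby testis in 3 of 3 and in marmoset in 0 of 3, beside 11.4%, 13.6% and 3.14% of all genes tested. In this list and others below, some genes passed the filter on low values through testis alone. An example is HILS1, at most 0.560 FPKM in the other rat columns. The list counts are therefore descriptions. HILS1, a linker histone relative of spermatids, was at 365 FPKM in rat testis, 7.88 above the highest other column. HSPA2, a heat shock protein of germ cells that escorts transition proteins, was at 435 FPKM in rat, 1134 in wallaby and 57.5 in marmoset testis, where it lay 0.78 above the highest other column. The histone chaperone NASP was at 133 FPKM in rat and 12.4 in wallaby testis, 5.07 and 2.30 above the highest other column. In marmoset testis NASP was at 86.2 FPKM, 1.37 above the highest other column. HIST1H2BA and HIST1H2AA, testis histone genes, were at 1.96 and 2.60 FPKM in rat testis; these libraries hold polyadenylated RNA, and many histone mRNAs end without a poly(A) tail. The medians of the list (testis minus mean of the other columns) were 5.48 in rat, 5.27 in wallaby and 2.62 in marmoset, beside -0.27, -0.93 and -0.17 over all genes tested.

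Genes that mark or remove histones in spermatids were mostly expressed across tissues. In rat 1 of 12 was higher in testis, TSSK6, a testis kinase, at 168 FPKM and 7.08 above the highest other column. In marmoset 1 of 9 was higher, RNF8, a ubiquitin ligase that acts on histones, at 114 FPKM and 3.70 above. RNF8 was at 2.41 FPKM in rat testis and 6.94 in wallaby testis, where it did not reach the criterion. In wallaby 0 of 11 was higher. Over all genes tested the share was 11.4% in rat, 3.14% in marmoset and 13.6% in wallaby, so the rat count of 1 of 12 was near that of all genes. The list medians were 0.90, 0.71 and -0.30 in rat, marmoset and wallaby.

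Regulators of transition protein and protamine transcription were higher in testis in 7 of 10 rat genes (11.4% of all genes tested), 5 of 8 wallaby genes (13.6%) and 1 of 8 marmoset genes (3.14%). FHL5, the coactivator of CREM in spermatids, was at 307 FPKM in rat, 333 in wallaby and 0.667 in marmoset testis. CREM itself was at 136, 93.3 and 44.4 FPKM in rat, wallaby and marmoset testis, and in none of them was it 2 above the highest other column, with differences of 0.31, 0.77 and -0.32. GTF2A1L, a germ cell form of a general transcription factor, was at 160.1 FPKM in rat testis, 6.89 above the highest other column. The marmoset gene was TAF7L, a germ cell TFIID subunit, at 31.0 FPKM and 4.91 above the highest other column. List medians were 4.26 in rat, 2.45 in wallaby and 0.48 in marmoset.

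Genes for the storage and translation of protamine mRNA were higher in testis in 6 of 9 rat, 3 of 6 wallaby and 0 of 7 marmoset genes, beside 11.4%, 13.6% and 3.14% of all genes tested. The list medians were 3.72, 2.59 and 1.98, beside -0.27, -0.93 and -0.17 over all genes. YBX2, which coats stored spermatid mRNA, was at 539.7 FPKM in rat and 159 in wallaby testis. PIWIL1 was at 46.0, 27.7 and 6.99 FPKM in rat, wallaby and marmoset, and the marmoset value was 1.73 above its highest other column. TARBP2, which binds the protamine mRNA, went against the list, with differences of -1.13, -1.04 and -3.24 between testis and the highest other column in rat, wallaby and marmoset. Nuclear shaping and sperm head genes were higher in 5 of 7 rat, 5 of 5 wallaby and 0 of 6 marmoset genes, beside the same shares of all genes (11.4%, 13.6% and 3.14%), with list medians of 6.16, 4.75 and -0.65. SPEM1, needed for spermatid maturation, was at 374 FPKM in rat, 246 in wallaby and 0.141 in marmoset testis, and ZPBP, an acrosome protein, at 231, 38.1 and 0.614. Somatic linker histones were higher in 0 of 3 rat genes, beside 11.4% of all genes tested. In wallaby 2 of 3, H1F0 and H1FX, were lower, with differences of -4.42 and -4.79 to liver. There 29.2% of all genes tested were lower in testis.

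The genes with the profile most like a member over the 10 columns were found by Euclidean distance on log2(FPKM + 1), and all Pearson correlations across the columns were between 0.99 and 1.00. For rat Tnp1 they were Tnp2 (distance 0.90), the sperm tail gene ODF1 (1.38) and COX8C (1.75). ODF1 was at 3717 FPKM and COX8C at 2051 in testis, beside 3396 for Tnp1. For rat Brdt they were CST8 (0.21), CST12 (0.28) and THEGL (0.29), and for rat Chd5 they were RAB37 (0.52), STXBP5L (0.66) and PEX5L (0.70), the last at 20.4 FPKM in testis and 9.63 in female brain. For marmoset Chd5 they were the prohormone convertase gene PCSK1 (0.27), GPR61 (0.29) and NCAM2 (0.60), and for marmoset Brdt they included GPC2 (0.25) and KIF4A (0.32). The 10 columns share animals, and the genes nearest to Chd5 in marmoset were other genes than in rat.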

How the data were processed

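The deposited values are FPKM by the authors, in 1 table per species, and the table names call them normalized across tissues. The tools named are TopHat 1.4.0 and Cufflinks 2.0.0, per the submitters' processing notes; the genome build is not given in the sources used here. Per the labels' protocols marmoset libraries were strand-specific. Columns were matched to samples or groups by name; 8 columns that matched no sample were not used, and none of these held a value above 0. The 3 elephant fibroblast samples were not used. Low values showed no steps of whole reads (at most 1.39% of genes in the fullest bin), which leaves the depth of each column unknown, without an estimate of counting error.

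The members and gene lists were chosen with earlier results of these data known. Members were matched by symbol. Pathway genes named are those with the largest differences in their list and those that go against it; pattern genes are the 3 nearest by Euclidean distance, of which 1 is not reported here. SPINK2, on the epididymis marker list, was at 7817 FPKM in rat testis and 5.36 in rat ovary, and at 451 in marmoset testis and 481 in marmoset ovary; germ cells also express it, and the other epididymis markers found were below 1 FPKM in every testis column. The ovary marker list summed to 6.88, 19.0 and 3.32 FPKM in marmoset, rat and wallaby testis, and the spermatogonia list to 12.1, 49.4 and 47.7, over different numbers of genes found (6, 7 and 4, and 4, 6 and 3).

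Values were put on the log2(FPKM + 1) scale. Testis has 1 column per species, so a gene was counted at a difference of 2 to every other column, or to ovary or liver, among genes with at least 1 FPKM in 1 of the columns. Brain was set against the mean of heart, kidney and liver with limma 3.58.1 in R 4.3.3 (mean-variance trend, animal as a block, genes with at least 1 FPKM in 2 columns, Benjamini-Hochberg adjusted p below 0.05 and a log2 difference of at least 1). The animals pair the columns because the labels give individual 1 of each sex for every tissue. Female minus male differences correlated between tissues, over the genes tested, at 0.54 to 0.72 in marmoset and 0.14 to 0.51 in rat. With 1 animal of each sex, animal and sex cannot be told apart in them. On simulated data of 15100 marmoset genes the fit recovered 63 of 100 genes changed by 1.5 and 89 of 100 changed by 3 (log2). In rat, with 14560 genes, it recovered 64 and 91. Among the genes left unchanged there were 2 false calls in marmoset and 5 in rat. The simulated columns had independent noise and no effect shared by an animal, so these false calls do not give the error rate in the real columns. Alternatives were other pseudocounts, filters, differences, scaling to a common column median, columns left out and the fit without the block.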

Additional observations from a re-analysis of the deposited data

Results flagged for a closer look

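Chd5 stood on opposite sides of brain in marmoset and rat: testis minus the brain mean was -2.42 in marmoset and 1.86 in rat (log2(FPKM + 1)), and testis lay below both brain columns in the first and above both in the second. From the lists, 3 other genes were picked out because the same contrast was opposite. Their number is not a count of all sign changes in the lists, and the share over all genes is not given here. It was -2.91 in marmoset and 3.52 in rat for CAMK4, a calcium-dependent kinase that phosphorylates protamine. It was -1.32 and 3.44 for HOOK1, a gene of the spermatid manchette, and -1.50 and 2.08 for AGFG1, which acts in acrosome formation. The difference between the species was not tested, since testis has 1 column in each table. In marmoset testis CAMK4 was at 0.850 FPKM, HOOK1 at 1.14 and AGFG1 at 3.83, in the column where 5 of 5 round spermatid markers were below 1 FPKM. Whether cell makeup has a part in these contrasts was not tested.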

How the results depend on the processing

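No marmoset member was counted as higher in testis under any alternative tried. Brdt was not tested with a filter of 5 FPKM, nor Chd5 without the brain columns. The count of 7 of 8 rat members was obtained under all but a pair of alternatives. Rat Chd5 (1.55) was counted at a difference of 1 and, at 4.08, without brain. Wallaby Chd5 was counted, at 3.90, with a pseudocount of 0.1. Counts over all genes moved more. At a difference of 1 they were 1373 higher and 371 lower in marmoset and 3037 and 888 in rat; at a difference of 4 they were 64 and 0 in marmoset, 920 and 1 in rat, and 594 and 988 in wallaby. With a pseudocount of 0.1 genes lower in testis numbered 123 in marmoset and 400 in rat, and against ovary 2485 were higher and 1473 lower in marmoset and 2634 lower in rat. Without brain 121 marmoset and 316 rat genes were lower. Leaving out male heart, male liver and female kidney in rat, chosen after seeing the data, gave 2047 higher and 132 lower.

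In brain 6922 marmoset and 6511 rat genes were called. Without the animal as a replicate block these were 5600 and 6272, and no call on a member changed. Leaving out 1 column gave 5159 to 6963 in marmoset and 4804 to 6535 in rat. The Chd5 difference lay between 3.05 and 3.16 in marmoset (adjusted p 0.000119 to 0.000298) and between 2.35 and 2.46 in rat (0.000177 to 0.000322) over the 6 fits that tested it. For Prm1 in rat brain it ranged from -0.51 to 0.75 and never passed. Scaling columns to a common median moved the median gene from -0.34 to 0.01 in marmoset and from -0.28 to 0.07 in rat, and the share of calls that were higher in brain from 37.1% to 50.0% and from 39.4% to 52.9%; Chd5 was then at 3.39 and 2.68. The genes nearest in profile to Brdt and Chd5 changed with the pseudocount or without brain in 6 comparisons, with 0 or 1 of the 3 in common.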
